A study of Mus musculus with 6 samples.

Results

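Carbonic anhydrases and the bicarbonate and lactate transporters that work with them were described in RENCA cells with and without overexpressed AQP1. The set held 9 of the 78298 genes counted, taken by gene symbol: the carbonic anhydrase genes Car2, Car13, Car9 and Car12, the bicarbonate transporter genes Slc4a2, Slc4a4 and Slc4a7, and the lactate transporter genes Slc16a1 and Slc16a3. RENCA cells are a mouse line derived from a renal adenocarcinoma. One group, oe-AQP1, carried a lentivirus with the mouse Aqp1 coding sequence behind the ubiquitin C promoter, and the other, oe-NC, carried the empty vector. Puromycin (2 μg/mL, 14 days) removed cells without a vector in both groups, and 3 samples per group had their RNA sequenced. No untransduced cells were part of the comparison. The samples are described as biological replicates of stably transduced cells, but not as separate transductions, so the p-values measure the spread between these samples, and a difference between the transduced lines cannot be told apart from an effect of AQP1.

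Carbonic anhydrases interconvert carbon dioxide and water with bicarbonate and a proton. Cytosolic forms act inside the cell, and membrane forms hold their active site outside it. SLC4 proteins move bicarbonate across the plasma membrane, and the monocarboxylate transporters MCT1 and MCT4 move lactate together with a proton, which links them to the acid made in glycolysis. In the kidney such proteins serve bicarbonate reclamation and acid secretion, and in renal carcinoma CAIX, the product of the human counterpart of Car9, is a well-known marker of hypoxia signaling.

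Each sample held between 18385714.02 and 21920898.67 expected counts, and 15522 genes passed the low-count filter. Where 2 count ranges are compared, the first is that of the oe-AQP1 samples. Aqp1 itself had 7713 to 8545 counts against 25 to 45. Of 11 kidney and epithelial markers 10 were tested, Pax8 with 3053.99 to 3630 counts and Krt8 with 5969 to 8279 counts among them, while Epcam had no count in any sample. These markers moved with the group: 6 fell and 0 rose by limma-voom (at an unadjusted p under 0.05, 6 and 0; with edgeR, 6 and 0; with DESeq2, 5 and 0), and 1 rose without oe-NC sample 1. Their summed level was 845.8 to 877.7 CPM (counts scaled to library size) against 1033 to 1147 CPM. Of 12 markers of leukocytes, endothelium and erythroid cells, 9 had at most 4 counts in any sample, 1 of the 3 tested fell (Csf1r, log2 fold change -1.51) and 0 rose (1 at an unadjusted p under 0.05, 0 with edgeR, 0 with DESeq2), and the list sum was 37.6 to 40.57 CPM against 39.84 to 42.51 CPM. This sum mostly follows Cd68, with 576 to 777 counts over all samples, beside 55.57 to 202.28 for Csf1r and 13 to 35 for Pecam1. Cd68 did not pass (log2FC 0.15, adjusted p = 0.0764 by limma-voom). Of those tested, 60.0% of the kidney and epithelial list and 33.3% of the other list passed, beside 32.5% of all genes tested. The part of either marker list in the results below was not tested. The library oe-NC sample 1 stood apart from its group, with a chi-square per gene of 9.47 and 11.1 against the other oe-NC samples, where the remaining pairs of one group gave 1.71 to 2.04. The fit was also made without it.

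Of the 9 genes, 5 were highly counted, Car9 had few reads, and Slc4a4, Slc4a7 and Slc16a3 had at most 8 counts in any sample and did not pass the filter. Among the 6 genes tested, Car13 rose and Car2, Car12, Slc4a2 and Slc16a1 fell in oe-AQP1 cells (limma-voom, Benjamini-Hochberg adjusted p under 0.05 over all genes tested), while Car9 did not pass the test. Thus 1 gene rose and 4 fell, beside a background in which 32.5% of all genes tested passed in either direction, 16.0% higher and 16.6% lower. The changes were modest in size. None of the 6 reached an absolute log2 fold change (log2FC) above 1 with limma-voom, nor with edgeR or DESeq2 or at an unadjusted p under 0.05, a rule that 5.23% of all genes met (4.39% higher and 0.844% lower). The median log2FC of the 6 genes was -0.30, against 0.002 over all genes tested. Without oe-NC sample 1 the count was again 1 higher and 4 lower, and the log2FC was -0.37 for Car2, -0.37 for Car12 and -0.22 for Slc16a1.

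**Figure D1:**
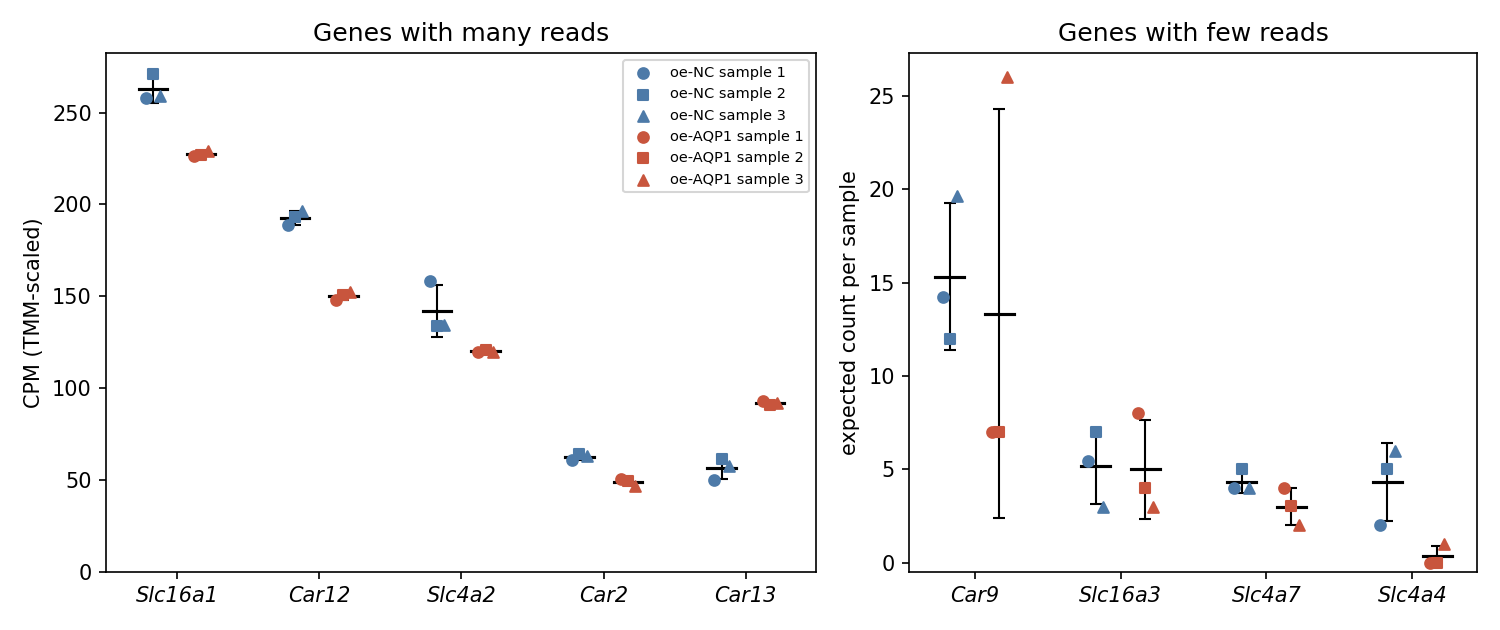
The left panel plots TMM-scaled CPM of the 5 genes with many reads, and the right panel plots expected counts of the 4 genes with few reads, with 1 point per sample, the group mean as a line and the SD as a bar. Within each gene of the left panel the 3 oe-AQP1 points lie apart from the 3 oe-NC points, above them for Car13 and below them for the others. How many of all genes tested separate in this way was not counted, so the separation is a description only. Heights of different genes are not scaled by gene length and are not to be compared.

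RefSeq promoters (build GRCm38.p6) were found for 7 of the 9 genes, in 9 windows; Car2 and Car13 had no entry. The 250 bases before the start are shown for Slc16a1 and Car12, which fell, and for Slc16a3 and Car9, hypoxia-inducible genes in many tissues with few reads here. Capitals mark the core of the hypoxia response element, ACGTG or its reverse complement CACGT, searched on both strands. All 4 genes lie on the forward strand.
Slc16a1, chr3:104638414-104638663: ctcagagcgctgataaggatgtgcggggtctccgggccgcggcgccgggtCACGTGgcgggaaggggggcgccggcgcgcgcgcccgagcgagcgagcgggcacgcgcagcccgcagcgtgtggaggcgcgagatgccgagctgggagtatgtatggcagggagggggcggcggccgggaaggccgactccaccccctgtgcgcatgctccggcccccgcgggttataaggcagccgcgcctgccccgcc
Slc16a3, chr11:120948817-120949066: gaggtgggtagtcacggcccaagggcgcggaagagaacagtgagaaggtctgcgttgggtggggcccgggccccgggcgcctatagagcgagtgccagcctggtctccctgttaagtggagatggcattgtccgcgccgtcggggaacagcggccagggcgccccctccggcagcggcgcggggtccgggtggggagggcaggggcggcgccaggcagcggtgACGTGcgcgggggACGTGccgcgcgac
Car9, chr4:43506776-43507025: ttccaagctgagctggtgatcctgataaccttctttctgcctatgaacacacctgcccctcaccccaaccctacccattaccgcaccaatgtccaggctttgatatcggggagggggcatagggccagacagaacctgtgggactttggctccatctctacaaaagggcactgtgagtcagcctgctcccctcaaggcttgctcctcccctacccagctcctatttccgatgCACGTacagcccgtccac
Car12, chr9:66713436-66713685: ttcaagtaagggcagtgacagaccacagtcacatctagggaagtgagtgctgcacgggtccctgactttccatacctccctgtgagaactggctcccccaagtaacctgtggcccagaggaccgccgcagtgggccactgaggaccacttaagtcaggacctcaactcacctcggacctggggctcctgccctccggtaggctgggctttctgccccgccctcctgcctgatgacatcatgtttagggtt
The 2 matches of Slc16a1 overlap in a single CACGTG, Slc16a3 held 2 separate matches and Car9 held 1. Car12, Slc4a2, Slc4a4 and Slc4a7 held none in these windows, and 16.6% of 32851 mouse promoters of this length held at least 1. That share is not matched for base content. G and C made up 76.4% of the Slc16a1 window, 73.6% of Slc16a3, 59.2% of Car12 and 56.4% of Car9, against a median of 52.4% over all promoters. A match of letters describes the window and shows no binding.

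Car13 encodes a cytosolic carbonic anhydrase and was the gene of the set that rose. Its level was 93.16, 90.59 and 92.12 CPM in oe-AQP1 samples 1 to 3 and 50.29, 61.39 and 57.84 CPM in oe-NC samples 1 to 3. All 3 oe-AQP1 samples lay well above all 3 oe-NC samples, and the oe-AQP1 samples were closer together. Its mean was 92.0 ± 1.29 CPM in oe-AQP1 and 56.5 ± 5.67 CPM in oe-NC cells (SD, n = 3). Car13 was thus 1.63-fold higher (log2FC = 0.71, 95% interval 0.56 to 0.85, adjusted p = 2.18e-05 by limma-voom). With 1 sample left out at a time the log2FC stayed between 0.63 and 0.76, with the lower value without oe-NC sample 1. The counts were whole numbers in every sample, and no annotated gene overlapped Car13.

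Car2, the other cytosolic form and a highly active enzyme, went the opposite way. It had 50.68, 49.66 and 46.89 CPM in the oe-AQP1 samples and 60.83, 64.02 and 62.96 CPM in the oe-NC samples. The groups did not overlap, and Car2 fell by 21.6% (log2FC = -0.35, standard error 0.05, adjusted p = 4.06e-04 by limma-voom). Car13 and Car2 are neighbors on chromosome 3 of GRCm39 and both lie on the forward strand. Car13 runs from 14706783 to 14728077 and Car2 from 14951317 to 14967568, with 244.5 kb between their starts. The stretch also holds Car1 and Car3, which had no count in any sample and at most 2 counts, respectively. The genes at the ends of this carbonic anhydrase cluster thus changed in opposite directions, and the ratio of Car13 to Car2 counts went from 0.90 ± 0.07 in oe-NC cells to 1.88 ± 0.08 in oe-AQP1 cells (SD, n = 3).

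Car12 encodes a membrane carbonic anhydrase with an extracellular active site. It had 147.8, 150.8 and 152.5 CPM in the oe-AQP1 samples and 188.8, 193 and 196.5 CPM in the oe-NC samples. No sample of one group came near the other, and Car12 fell to 0.78 of its level (log2FC = -0.36, standard error 0.04, adjusted p = 4.54e-05 by limma-voom). The gene lies on chromosome 9 from 66615426 to 66674186 and overlaps Aph1b on the opposite strand. Aph1b had 432.36 to 629.41 counts against 2923 to 4188 for Car12, and its own log2FC was -0.43 (adjusted p = 0.00182 by limma-voom). Whether reads were counted by strand is not given in the sources used here, so reads from the overlap cannot be assigned with certainty.

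Car9, the hypoxia-inducible membrane form, had few reads in these cells. Expected counts were 7, 7 and 26 with AQP1 overexpressed and 14.26, 12 and 19.67 in the control. The groups overlapped, since oe-AQP1 sample 3 was the highest of all and the other oe-AQP1 samples were the lowest. The log2FC of -0.53 had a 95% interval from -1.57 to 0.51 (adjusted p = 0.420 by limma-voom). With 1 sample left out it ranged from -1.14 without oe-AQP1 sample 3 to -0.17 without oe-AQP1 sample 2, and it was -0.27 with edgeR and -0.26 with DESeq2. The interval leaves both a fall and a rise of Car9 possible. The gene lies on chromosome 4 from 43506966 to 43513729, its counts were not whole numbers in 2 samples, and the lncRNA gene Gm12454 on the opposite strand, with 12 to 44.33 counts, overlaps it.

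**Figure D2:**
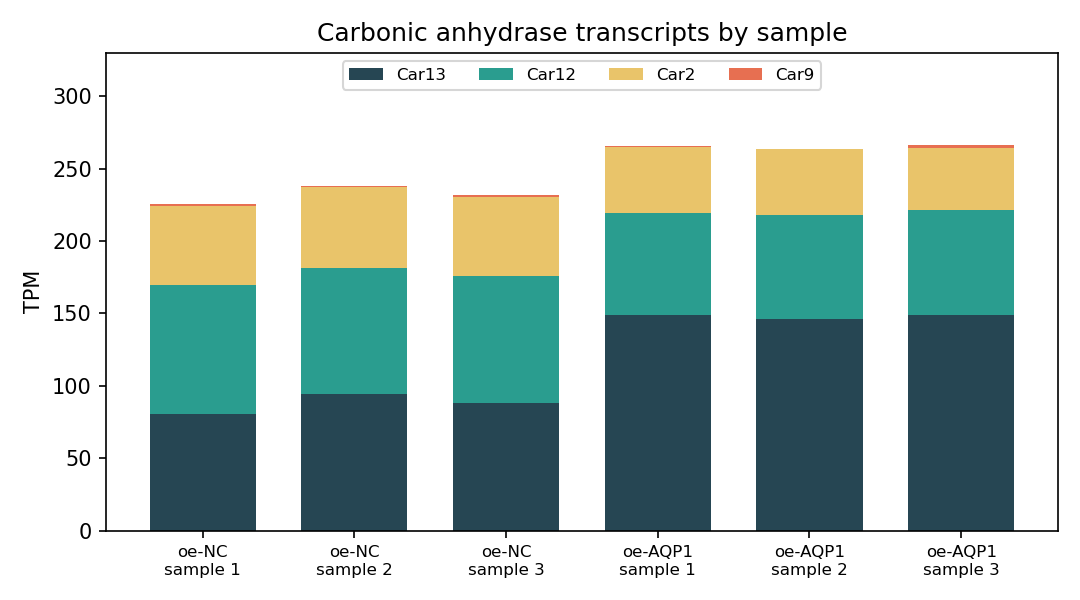
Bars stack the levels of Car13, Car12, Car2 and Car9 in TPM (counts scaled by the exon length of each gene and by the library) for each of the 6 samples. The Car13 segment is taller in the 3 oe-AQP1 samples, the Car12 and Car2 segments are shorter, and Car9 is barely visible in all 6 samples.

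Levels of different genes were compared per length, as TPM from the expected counts and the summed exon length of each gene. The 4 carbonic anhydrases summed to 265.8, 263.9 and 266.7 TPM in oe-AQP1 samples and 225.8, 238.4 and 231.9 TPM in oe-NC samples. The sums of the groups did not overlap. They are not a total of the family, since carbonic anhydrases outside the set are left out. Of the 4 others tested, 3 fell and 1 rose. The best counted of these, Car5b, averaged 47.6 TPM in oe-AQP1 and 70.0 TPM in oe-NC cells. Car13 made up 55.8 ± 0.394% of this sum in oe-AQP1 cells and 37.7 ± 1.97% in oe-NC cells (SD, n = 3). The share of Car12 was 26.9 ± 0.545% against 38.1 ± 1.39%, and that of Car2 was 16.9 ± 0.670% against 23.8 ± 0.596%. For the genes that fell, the groups were close, with a TPM ratio of Car12 to Car2 of 1.60 ± 0.0883 in oe-AQP1 and 1.60 ± 0.0296 in oe-NC cells. The ratio of Car13 to Car2 TPM was 3.30 ± 0.136 against 1.59 ± 0.120. Scaled instead by the longest transcript, the sums were closer, at 272.4 to 275.4 TPM against 257.2 to 268.1 TPM, and the Car13 share was 43.6% against 27.1%. These shares follow from the gene values above and were not tested.

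Slc4a2 encodes AE2, which exchanges chloride for bicarbonate, and it was the one SLC4 gene of the set with many reads. It had 119.7, 120.6 and 119.6 CPM in the oe-AQP1 samples and 158.2, 133.7 and 134.3 CPM in the oe-NC samples. The groups did not overlap, but oe-NC sample 1 was far above the rest of its group. Slc4a2 fell by 15.3% (log2FC = -0.24, standard error 0.06, adjusted p = 0.0145 by limma-voom). Without oe-NC sample 1 the log2FC was -0.16 (adjusted p = 1.56e-04 by limma-voom), and without any 1 of the oe-AQP1 samples the adjusted p was 0.0530 to 0.0571. This call is thus the least firm of the 5. The expected counts of Slc4a2 were fractional in all 6 samples, and 2 protein-coding genes overlap it on chromosome 5 (24628835 to 24645948), Fastk on the opposite strand and ENSMUSG00000144236 on the same strand, whose counts were not analysed here. Fastk had 1423.21 to 1725.65 counts and a log2FC of -0.18 (adjusted p = 0.0439 by limma-voom).

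Slc4a4 and Slc4a7 encode the sodium-bicarbonate cotransporters NBCe1 and NBCn1, and both were at the edge of detection. NBCe1 is the basolateral bicarbonate exit of the kidney proximal tubule. Slc4a4 (chromosome 5, 89034345 to 89387514) had 0, 0 and 1 count with AQP1 overexpressed and 2, 5 and 6 in the control, so that the groups did not overlap. The summed counts of 1 and 13, scaled by library size, gave a ratio of 0.0731 with an exact 95% interval from 0.00172 to 0.487, which covers counting error only. When every gene with a count was tested, the log2FC of Slc4a4 was -2.72 (adjusted p = 0.00825 by limma-voom), a value that depends on the constant added to each count. The opposite-strand lncRNA gene Gm57322 overlaps Slc4a4 and had 169.35 to 247.84 counts. Slc4a7 (chromosome 14, 7669819 to 7767484) had 4, 3.01 and 2 counts against 4, 5 and 4, a ratio of 0.658 (exact 95% interval 0.248 to 1.66), and no difference was detectable.

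Slc16a1 encodes MCT1 and had the highest level of the set in both groups. It had 226.1, 226.7 and 229.2 CPM in the oe-AQP1 samples and 257.9, 271.2 and 259 CPM in the oe-NC samples. Every oe-AQP1 sample was below every oe-NC sample, and Slc16a1 fell by 13.4% (log2FC = -0.21, standard error 0.04, adjusted p = 0.00152 by limma-voom). The gene lies on chromosome 3 from 104545811 to 104565780, far from the carbonic anhydrase cluster. Slc16a3 encodes MCT4, the lactate exporter of many glycolytic cells, and had 8, 4 and 3 expected counts with AQP1 overexpressed and 5.46, 7 and 3 in the control. Its ratio was 0.95 (exact 95% interval 0.433 to 2.09), and the groups overlapped. Csnk1d, with 3263 to 4371 counts, overlaps Slc16a3 on the opposite strand of chromosome 11 (120838846 to 120851694). Slc16a1 supplied 99.92 to 99.97% of the summed TPM of both transporter genes. Promoter windows of both genes held letters that match the hypoxia core, as shown above, in Slc16a1 only within a single CACGTG. Binding was not tested.

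**Figure D3:**
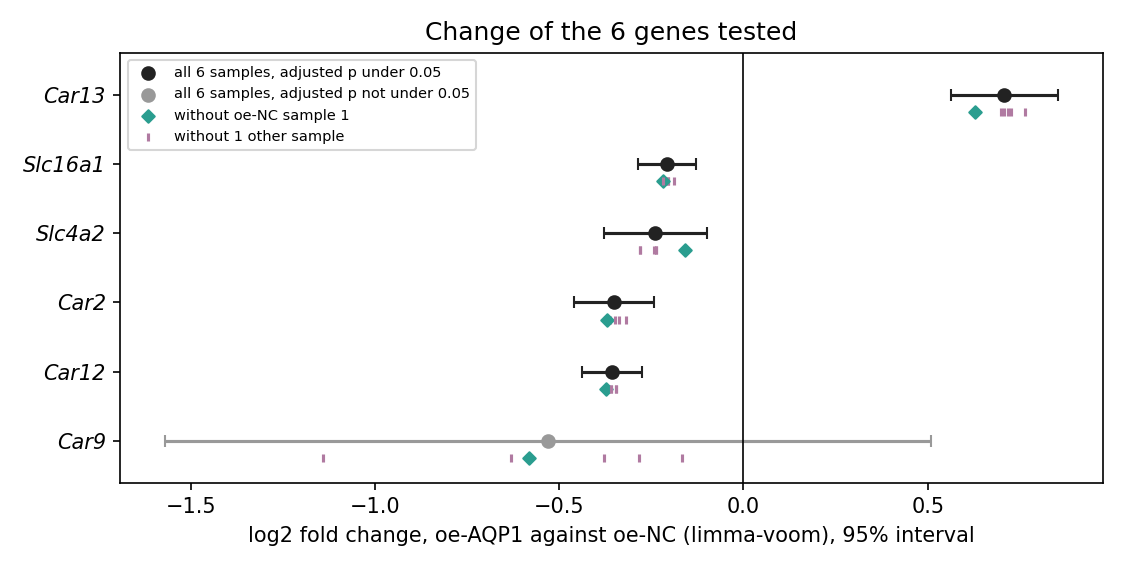
Points give the log2FC of the 6 genes tested with their 95% intervals, and the small marks below each point give the log2FC with 1 sample left out. Only Car13 lies to the right of 0, and the interval of Car9 spans 0. Leaving out oe-NC sample 1 moves Slc4a2 from -0.24 to -0.16.

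Ordered by TPM in oe-NC cells, Slc16a1 (193 ± 5.62) came first, followed by Car12 (88.2 ± 0.814), Car13 (87.5 ± 6.93), Slc4a2 (58.4 ± 7.36), Car2 (55.1 ± 0.712) and Car9 (1.22 ± 0.205, all SD, n = 3). Sample values of Car12 and Car13 overlapped, as did those of Slc4a2 and Car2. Slc16a3, Slc4a4 and Slc4a7 followed at 0.0919, 0.0615 and 0.0562 TPM with overlapping samples. In oe-AQP1 cells Car13 (148 ± 1.71) came second behind Slc16a1 (173 ± 1.92), and Car12 (71.5 ± 1.44), Slc4a2 (51.1 ± 0.348) and Car2 (44.9 ± 1.63) followed with no overlap between neighbors. In that group Slc4a7 (0.0383) stood above Slc4a4 (0.0048). Scaled by the longest transcript, Slc4a2 (89.5) stood above Car13 (71.2) in oe-NC cells, and the order in oe-AQP1 cells did not change.

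The pathway annotation deposited with the counts placed all 4 carbonic anhydrases in nitrogen metabolism. Car2, Slc4a2 and Slc4a4 shared bile secretion and pancreatic secretion, and Car2 and Slc4a4 shared bicarbonate reclamation in the proximal tubule. The 2 genes that this last pathway shared with the set, one well counted and the other with few reads, were both at lower values in oe-AQP1 cells. Slc4a4 did not pass the filter, and the pathway as a whole was not examined.

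Beyond the 9 genes, 5 lists of acid-base genes held 85 genes, of which 53 were tested. Of these, 4 rose and 19 fell in oe-AQP1 cells, 43.4% of those tested, against the 32.5% of all genes given above. The median log2FC was -0.16. Without oe-NC sample 1, 4 rose and 20 fell.

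Among the other carbonic anhydrases, 4 of 12 were tested, of which 3 fell and 1 rose (median log2FC -0.95). All of those tested thus passed, beside 32.5% of all genes tested. The cytosolic Car7 rose, with 67 to 79 counts against 29 to 37 (log2FC = 1.03, standard error 0.16, adjusted p = 9.89e-04 by limma-voom). The secreted form Car6 fell, with 31 to 46 counts against 83 to 105 (log2FC = -1.38, adjusted p = 4.86e-04 by limma-voom). The membrane form Car15 also fell, with 5.85 to 11.98 counts against 18.4 to 25.99 (log2FC = -1.30, adjusted p = 0.0134 by limma-voom), but not without oe-AQP1 sample 3 (adjusted p = 0.0651). Its counts were fractional in all 6 samples, and Gm20518 overlaps it on the same strand. The third gene that fell was Car5b, a mitochondrial form (log2FC = -0.61). The cytosolic genes Car7 and Car13 were thus the carbonic anhydrases that rose, while the cytosolic Car2 fell.

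Of 17 other bicarbonate transporters 11 were tested, and 4 fell and 0 rose (at an unadjusted p under 0.05, 6 and 0; with edgeR, 4 and 0; with DESeq2, 3 and 0), with a median log2FC of -0.26. That was 36.4% of those tested, near the 32.5% of all genes tested. The largest decreases among genes that passed were those of Slc4a5, the cotransporter NBCe2 (56 to 77 counts against 111 to 133, log2FC = -1.02), and Slc4a1, the exchanger AE1 (38 to 53 against 80 to 89, log2FC = -0.99). Leaving out any sample but oe-NC sample 1 left 2 genes that fell, and without oe-NC sample 1 there were 4.

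Lactate transport and metabolism held 20 further genes, of which 14 were tested, 5 fell and 1 rose (median log2FC -0.19). This made 42.9% of those tested, beside 32.5% of all genes tested. Bsg, which encodes basigin, the chaperone that brings MCT1 and MCT4 to the membrane, had 13134 to 14413 counts against 16396 to 19910 (log2FC = -0.49, standard error 0.03, adjusted p = 1.48e-06 by limma-voom). Ldha, the lactate dehydrogenase subunit that favors lactate formation, fell as well (11663.98 to 12740 counts against 17330.9 to 20643, log2FC = -0.71, adjusted p = 3.41e-08 by limma-voom). Slc16a12, a relative of MCT1 that carries creatine, fell to a like extent (log2FC = -0.71), and Slc16a13 rose (log2FC = 0.36, adjusted p = 0.00955 by limma-voom). Thus Slc16a1, its chaperone gene and Ldha were all lower in oe-AQP1 cells.

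Of 25 genes of the vacuolar proton pump 20 were tested, and 6 fell and 2 rose (median log2FC -0.01). The share that passed was 40.0% of those tested, beside 32.5% of all genes tested. Tcirg1, the a3 isoform of its membrane sector, had the largest increase among the tested genes of these acid-base lists, with 4620 to 5198 counts against 1489 to 1872 (log2FC = 1.44, standard error 0.06, adjusted p = 2.40e-08 by limma-voom). Atp6v0c, the proteolipid of the rotor ring, rose by little (log2FC = 0.16, adjusted p = 0.00453). The a1 isoform gene Atp6v0a1 (log2FC = -0.32) and the catalytic subunit gene Atp6v1a (log2FC = -0.33) fell. Among 11 proton sensors and channels 4 were tested (median log2FC -0.20), and the proton-sensing receptor gene Gpr4 fell (30 to 44 counts against 59 to 82, 0.4996-fold, adjusted p = 0.00217 by limma-voom). Gpr4 was the only 1 of the 4 that passed, a smaller share than the 32.5% of all genes tested. None of the 4 rose (0 at an unadjusted p under 0.05, 0 with edgeR and 0 with DESeq2). With 16.0% of all genes tested higher, 4 genes are too few for the lack of a rise to stand out.

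Because Car9, Car12 and Slc16a3 are known targets of the hypoxia-inducible factors, 21 hypoxia factors and other targets were set beside them. Of the 19 tested, 11 fell and 2 rose, 68.4% of those tested beside 32.5% of all genes tested (16.6% lower and 16.0% higher), with a median log2FC of -0.50. Without oe-NC sample 1, 12 fell and 2 rose. Bnip3, a mitophagy receptor, had 1246 to 1327 counts against 3066 to 3473 (log2FC = -1.38, standard error 0.05, adjusted p = 5.84e-09 by limma-voom). Ankrd37 (log2FC = -1.40) and the glucose transporter gene Slc2a1 (1093 to 1273 counts against 1744 to 2076, log2FC = -0.80, adjusted p = 9.14e-07) fell too. Pfkfb3, a regulator of glycolysis, rose (log2FC = 0.32, adjusted p = 3.94e-04), as did Hif1an, an inhibitor of the factors (log2FC = 0.17, adjusted p = 0.0136). The negative regulators of the list did not move together. Egln1 fell (log2FC = -0.79, adjusted p = 4.55e-06 by limma-voom), and Vhl (log2FC = 0.02) and Egln2 (log2FC = 0.003) did not pass. Without oe-AQP1 sample 1 or 3 or oe-NC sample 3, or with the loosest filter, the adjusted p of Hif1an was above 0.05 and 1 gene of the list rose. Hif1a had 6020 to 6808 counts against 5809 to 6959.99 and a log2FC of -0.04 (adjusted p = 0.603 by limma-voom), which became -0.09 (adjusted p = 0.00418) without oe-NC sample 1. Of the 3 targets in the set, Car12 fell with this list, while Car9 did not pass and Slc16a3 was not tested.

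**Figure D4:**
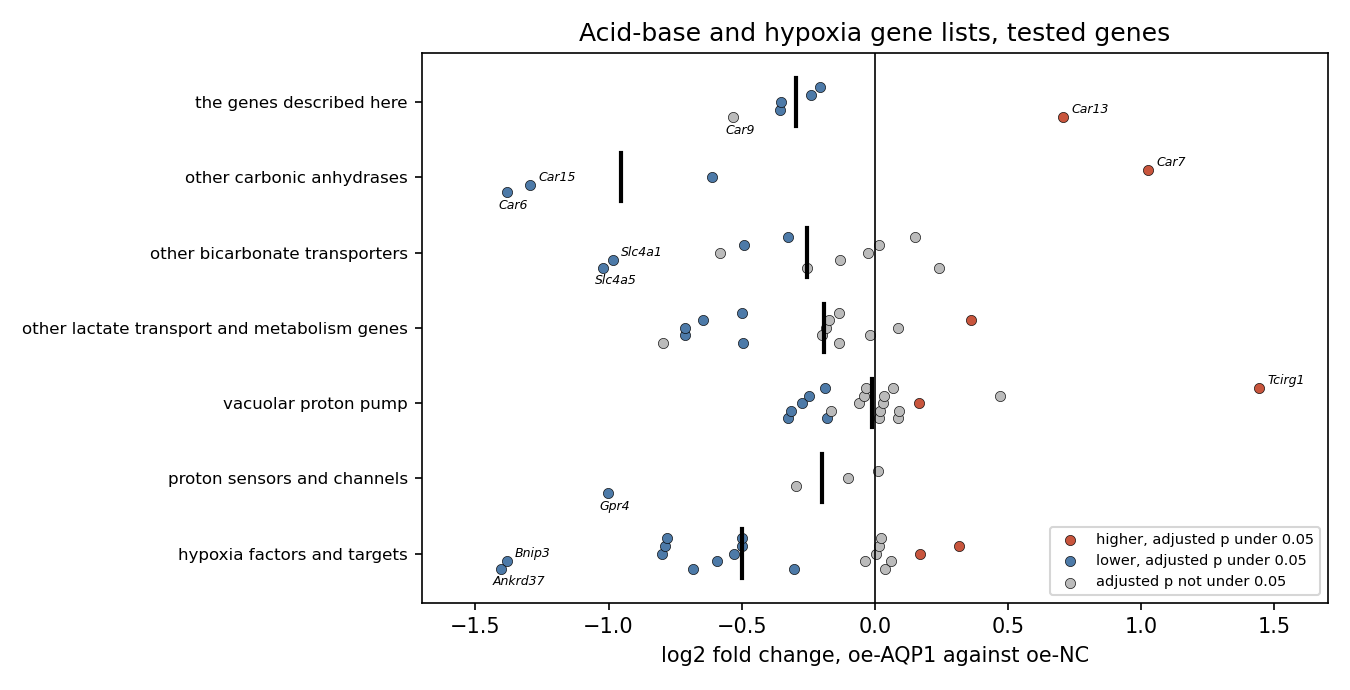
Each point is the log2FC of 1 tested gene, grouped by list, with red for genes that rose, blue for genes that fell, gray for genes with an adjusted p not under 0.05, and a black line at the list's median. Car13, Car7 and Tcirg1 lie to the right of 0, and the median of the hypoxia list lies at -0.50.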

How the data were processed

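The authors deposited expected counts per gene, not scaled between samples, for 6 samples of TruSeq RNA libraries sequenced paired-end. Per the paper's methods reads were aligned to GRCm39, whereas the submitters' processing notes name GRCm38 and mm10 with fastp, HISAT2, featureCounts and Subread. Of 78298 gene identifiers 78168 matched GENCODE M39 (GRCm39), which gave positions and lengths. The 2 deposited columns of group means were not used. All samples carry the same batch label.

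Expected counts were rounded, filtered with edgeR's filterByExpr, scaled by TMM and compared by limma-voom (limma 3.58.1, edgeR 4.0.16, R 4.3.3), with Benjamini-Hochberg adjustment over 15522 genes. A gene counts as having risen or fallen at an adjusted p under 0.05. The study's further threshold was an absolute log2FC above 1. edgeR's quasi-likelihood test and DESeq2 1.42.0 were alternatives. The code was tested on simulated counts. CPM and TPM were computed from the counts, TPM with the union-exon length.

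The 9 genes and the lists were chosen with earlier results of these data known. Named were the 9 genes, Aqp1, the 2 largest increases and decreases that passed in each acid-base or hypoxia list whose higher group averaged 20 counts or more, and Bsg, Ldha, Hif1a and Slc2a1. Car5b, Egln1, Egln2, Vhl, the marker genes and overlapping genes were named after their values were seen. Same-numbered samples of the groups did not deviate together. One further acid-base list is not reported here.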

Additional observations from a re-analysis of the deposited data

How the results depend on the processing

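Under 17 other settings (edgeR, DESeq2, sample quality weights, 3 scalings, 2 filters, protein-coding genes, a replicate block, 6 fits without 1 sample, and unrounded counts, the last chosen after seeing the data), Car13, Car2, Car12 and Slc16a1 kept their direction and call. Car9 and Car15 gave no value under the filter of 10 counts per sample. Hif1a also passed with sample quality weights. With the fold threshold of the study added, 0 genes of the set rose and 0 fell. Slc4a2 lost its call without oe-AQP1 sample 1, 2 or 3, as given above. Scaling by the longest transcript changed the rank of 2 genes in oe-NC cells. The numbers of the samples gave correlations of 0.01, -0.0044 and -0.07 between same-numbered samples of the groups, so they did not pair them, and with the replicate block 1 gene of the set rose and 4 fell, with 4 and 18 genes of the wider lists. Differences in genes under 20 counts were not detectable at this depth unless large.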
